A study of Mus musculus with 5 samples.

Results

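The 10 genes described here encode enzymes and regulators of branched-chain amino acid catabolism: Bcat2, Bckdha, Bckdhb, Dbt, Bckdk, Ppm1k, Ivd, Mccc1, Hibch and Pccb. They were taken by name, and every probe set annotated with exactly 1 of these symbols was used, which gave 15 probe sets for 10 of the 18194 gene symbols on Affymetrix Mouse Genome 430 2.0 arrays. Whole-heart RNA of female mice was measured in 2 groups. The 3 NZB_W hearts came from mice aged 12 to 15 weeks with lupus nephritis and kidney injury scored as moderate, a strain known for developing lupus. The 2 NZW hearts came from healthy NZW mice of matched age, and no treatment is named for either group. Strain and kidney disease cannot be told apart in this design.

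Leucine, isoleucine and valine are broken down in mitochondria, in the heart among other tissues. Bcat2, the mitochondrial aminotransferase, takes the amino group off all of them, and the branched-chain keto acid dehydrogenase complex then commits the resulting keto acids to oxidation. That complex is switched off by the kinase Bckdk and on by the phosphatase Ppm1k, after which separate branches lead leucine to acetyl-CoA and ketone bodies, and valine and isoleucine to propionyl-CoA. Loss of this pathway's activity and a rise of keto acids have been described in failing hearts of mice and humans.

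Along the pathway, the entry enzyme Bcat2 was lower in NZB_W hearts, by 1.75-fold. Pccb, a subunit of the carboxylase that acts on propionyl-CoA from valine and isoleucine, was higher, by 1.65-fold. The groups did not overlap in either gene. The 13 probe sets of the other 8 genes overlapped between the groups, and their log2 differences (NZB_W minus NZW) lay between -0.22 and -0.015. Neither Bcat2 nor Pccb passed the test over all probe sets. Of the 15 member probe sets 0 passed it (limma, adjusted p under 0.05), and 2 had an unadjusted p under 0.05, against 0.0219% and 5.25% of all 22804 probe sets tested. A single member probe set had every NZB_W array below both NZW arrays, a pattern seen in 9.66% of all probe sets, and a single one had every NZB_W array above them, seen in 6.96%.

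The stretches before the annotated transcription starts of Bcat2 and Pccb are shown because these are the members whose groups did not overlap. Ppm1k is added as a member that does hold matches to the motifs searched. Each runs for 250 bases up to its start, read 5′ to 3′ on the gene's strand from RefSeq promoters of GRCm38.p6, the C57BL/6J reference, which is neither strain studied here. They lie at chr7:45569903-45570152 and chr7:45571029-45571278 on the plus strand for the 2 starts of Bcat2, at chr9:101034885-101035134 on the minus strand for Pccb, and at chr6:57535488-57535737 on the minus strand for Ppm1k. Capitals mark matches to AGGTCA (a nuclear receptor half-site), GGGCGG (a GC box), CCAAT (the box of that name) or CACGTG (an E-box), on either strand.
Bcat2 upstream start: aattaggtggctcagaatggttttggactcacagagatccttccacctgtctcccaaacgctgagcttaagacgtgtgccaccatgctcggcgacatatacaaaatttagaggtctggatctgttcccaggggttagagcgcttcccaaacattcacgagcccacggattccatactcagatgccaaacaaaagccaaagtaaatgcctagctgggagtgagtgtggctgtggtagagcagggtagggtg
Bcat2 downstream start: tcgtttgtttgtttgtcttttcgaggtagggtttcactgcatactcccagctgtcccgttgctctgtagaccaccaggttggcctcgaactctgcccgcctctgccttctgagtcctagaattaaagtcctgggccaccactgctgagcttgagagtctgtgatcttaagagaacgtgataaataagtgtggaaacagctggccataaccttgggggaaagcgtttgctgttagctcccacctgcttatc
Pccb: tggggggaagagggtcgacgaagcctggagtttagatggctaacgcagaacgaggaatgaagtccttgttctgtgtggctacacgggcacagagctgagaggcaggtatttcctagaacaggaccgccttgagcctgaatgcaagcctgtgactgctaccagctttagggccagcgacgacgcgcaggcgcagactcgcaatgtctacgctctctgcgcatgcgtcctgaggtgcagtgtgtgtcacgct
Ppm1k: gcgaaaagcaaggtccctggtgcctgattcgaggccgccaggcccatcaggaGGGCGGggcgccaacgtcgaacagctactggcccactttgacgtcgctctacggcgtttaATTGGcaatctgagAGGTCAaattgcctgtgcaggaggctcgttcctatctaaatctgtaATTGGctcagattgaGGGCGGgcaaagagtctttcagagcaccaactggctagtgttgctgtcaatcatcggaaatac
Ppm1k had 1 half-site, 2 GC box and 2 CCAAT matches, and the Bcat2 and Pccb windows had 0 of any. The Bckdha window and 1 Bckdhb window also had 0 of any, though the groups overlapped in these genes. A lack of matches is thus not particular to Bcat2 and Pccb. Promoters were found for 9 of the 10 members, in 11 windows. The half-site was in 2 of the 11 windows, the GC box in 4, CCAAT in 5 and the E-box in 0, against 14%, 32.7%, 33.8% and 6.02% of all 32851 windows of this length, and matches of different motifs did not overlap. These are matches of letters and do not identify binding sites.

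Bcat2 (1425764_a_at, chromosome 7) was the member with the smallest p. Its log2 values were 8.58, 8.70 and 8.39 in NZB_W hearts, against 9.40 and 9.34 in NZW hearts. All 3 NZB_W values lay below both NZW values, with a gap wider than the range within either group. The means were 8.56 ± 0.154 in NZB_W (SD, n = 3) and 9.37 ± 0.0388 in NZW (SD, n = 2), a log2 difference of -0.81 (SE 0.11, 95% interval -1.10 to -0.52, limma adjusted p = 0.389). The fold has a 95% interval from 1.44 to 2.14, and the unadjusted p of 0.00099 ranked 58 among the 22804 probe sets. Leaving out any 1 array gave differences between -0.88 and -0.73, so no single array carried the Bcat2 difference. Bcat1, the cytosolic aminotransferase that is low in adult heart muscle, was on 3 probe sets, none of which was bright enough to be tested. Its brightest read 3.97 to 4.02 in NZB_W hearts and 3.99 to 4.03 in NZW hearts, below the array medians.

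**Figure D1:**
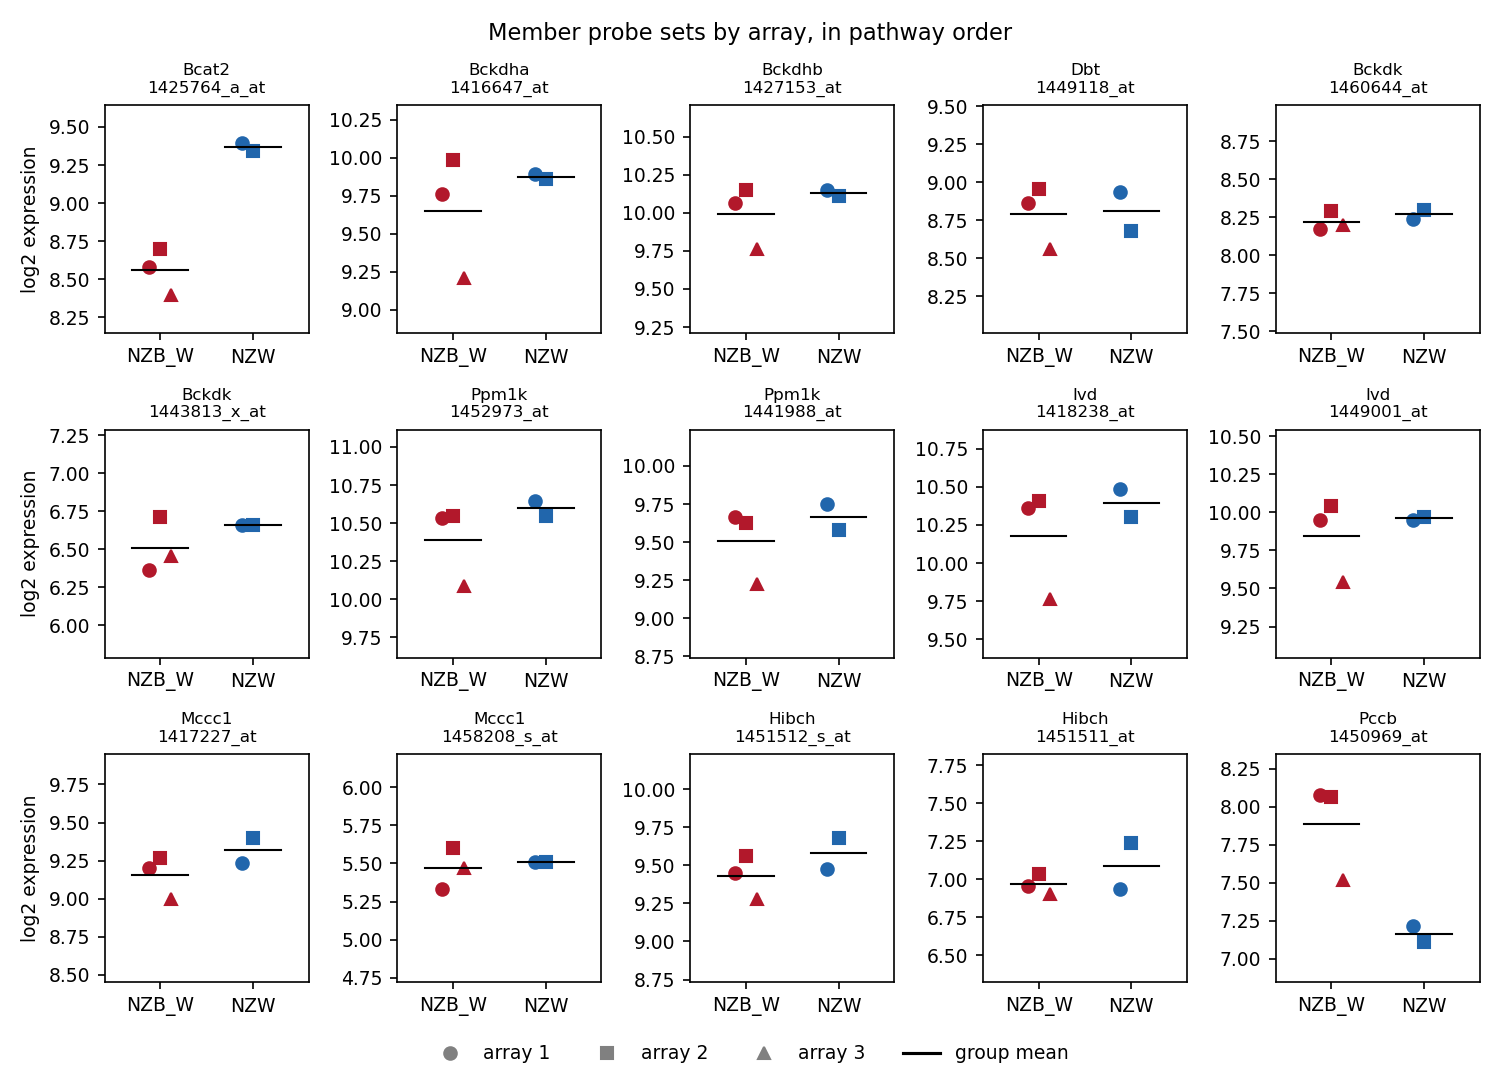
Log2 expression of each member probe set (vertical axes, all spanning the same log2 range) in the 3 NZB_W arrays (red, left) and the 2 NZW arrays (blue, right), in pathway order; marker shapes give the array number and lines the group means. Bcat2 is lower and Pccb higher in all NZB_W arrays, and NZB_W array 3 (triangle) is the lowest of the 5 arrays in 11 of the 15 panels.

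The subunits of the dehydrogenase complex overlapped between the groups. Bckdha (1416647_at), the alpha subunit of the decarboxylase and the one that is phosphorylated, read 9.76, 9.99 and 9.21 in NZB_W hearts, against 9.89 and 9.86 in NZW hearts. NZB_W array 3 was far below the other 4 arrays, and NZB_W array 2 was the highest of all. The log2 difference of -0.22 (SE 0.25, 95% interval -0.88 to 0.43) was therefore the least precise of the 15, and without NZB_W array 3 it was 0.00090. Bckdhb (1427153_at), the beta subunit of the decarboxylase, read 10.07, 10.15 and 9.77 in NZB_W hearts, against 10.15 and 10.11 in NZW hearts. Here too NZB_W array 3 stood alone at the low end, and the difference of -0.13 (95% interval -0.49 to 0.22) was -0.019 without it. Dbt (1449118_at), the acyltransferase that forms the core of the complex, read 8.87, 8.95 and 8.56 in NZB_W hearts, against 8.94 and 8.68 in NZW hearts. Its groups overlapped, with a difference of -0.015 (95% interval -0.43 to 0.40) that was 0.10 without NZB_W array 3 and 0.11 without NZW array 1.

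The kinase and the phosphatase that set the activity of the complex did not pass the test on any of their probe sets. Bckdk, the inactivating kinase, read 8.18, 8.29 and 8.20 in NZB_W hearts, against 8.24 and 8.30 in NZW hearts, on its brighter probe set (1460644_at). This was the narrowest interval among the members: the difference was -0.048 (SE 0.068, 95% interval -0.23 to 0.13), and NZB_W array 3 did not stand apart. Its dimmer probe set (1443813_x_at, of a type that can bind related sequences) differed by -0.15 (95% interval -0.47 to 0.17). Ppm1k, the phosphatase that reactivates the complex, read 10.54, 10.55 and 10.08 in NZB_W hearts, against 10.64 and 10.55 in NZW hearts, on its brighter probe set (1452973_at). NZB_W arrays 1 and 2 were close to the lower NZW array, and NZB_W array 3 lay below all of them. The difference was -0.21 (SE 0.17, 95% interval -0.66 to 0.24), and -0.054 without NZB_W array 3. The other Ppm1k probe set (1441988_at), built from a different accession, gave -0.16 (95% interval -0.60 to 0.27), and -0.023 without that array.

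The kinase relative to the phosphatase, taken as the log2 value of Bckdk minus that of Ppm1k within an array, was -2.36, -2.26 and -1.89 in NZB_W hearts, against -2.41 and -2.25 in NZW hearts. NZB_W array 3 was the highest of the 5, NZB_W arrays 1 and 2 lay within the range of the NZW arrays, and the mean shift of 0.16 was smaller than the SD of 0.249 among the NZB_W hearts. Since probe sets bind with different strength, such a value is read only between arrays and not as a ratio of transcripts.

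On the leucine branch both enzymes overlapped between the groups. Ivd, isovaleryl-CoA dehydrogenase, read 10.36, 10.40 and 9.76 in NZB_W hearts, against 10.49 and 10.30 in NZW hearts, on its brighter probe set (1418238_at). The difference was -0.22 (95% interval -0.82 to 0.39), and -0.011 without NZB_W array 3, the lowest array. The other Ivd probe set (1449001_at) derives from the same accession, so it is not independent evidence, and it gave -0.11 (95% interval -0.56 to 0.33). Mccc1, the biotin-bearing subunit of methylcrotonyl-CoA carboxylase, read 9.20, 9.26 and 9.00 in NZB_W hearts, against 9.23 and 9.40 in NZW hearts (1417227_at). Its difference of -0.16 (SE 0.11, 95% interval -0.46 to 0.13) had the smallest unadjusted limma p of the 13 probe sets outside Bcat2 and Pccb, 0.215. The dim second Mccc1 probe set (1458208_s_at) differed by -0.039 (95% interval -0.30 to 0.22).

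On the valine branch, Hibch, the hydrolase that frees 3-hydroxyisobutyrate from coenzyme A, read 9.45, 9.56 and 9.28 in NZB_W hearts, against 9.47 and 9.68 in NZW hearts (1451512_s_at). NZB_W array 2 lay between the NZW arrays, and the difference was -0.15 (SE 0.12, 95% interval -0.46 to 0.17). The other Hibch probe set (1451511_at), from the same accession, differed by -0.12 (95% interval -0.42 to 0.18), and by 0.031 without NZW array 2.

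Pccb (1450969_at, chromosome 9), the beta subunit of propionyl-CoA carboxylase, was the 1 member with a higher NZB_W mean. Its log2 values were 8.08, 8.06 and 7.52 in NZB_W hearts, against 7.22 and 7.11 in NZW hearts. All NZB_W values were above both NZW values, although NZB_W array 3 was closer to the NZW arrays than to the other NZB_W arrays. The means were 7.89 ± 0.319 in NZB_W (SD, n = 3) and 7.17 ± 0.0733 in NZW (SD, n = 2), a log2 difference of 0.72 (SE 0.20, 95% interval 0.19 to 1.25, unadjusted p = 0.0186, limma adjusted p = 0.823). The fold has a 95% interval from 1.14 to 2.38. Leaving out any 1 array gave differences between 0.62 and 0.90, the highest without NZB_W array 3.

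Pcca, the alpha subunit that carries the biotin of the same carboxylase, had a lower NZB_W mean. It read 9.99, 10.09 and 9.60 in NZB_W hearts, against 10.19 and 10.30 in NZW hearts (1451405_at). Every NZB_W value lay below both NZW values, but the difference of -0.35 (SE 0.17, 95% interval -0.79 to 0.091, limma adjusted p = 0.883) did not pass the test. Its other probe set was too dim to test. Within arrays, the log2 value of Pccb minus that of Pcca was -1.91, -2.03 and -2.09 in NZB_W hearts, against -2.98 and -3.18 in NZW hearts. The difference of the means, NZB_W minus NZW, was 1.07, against SDs of 0.0865 in NZB_W (n = 3) and 0.145 in NZW (n = 2). NZB_W array 3, which was low for each subunit on its own, was close to the other NZB_W arrays on this measure. No test was run on it, since both probe sets were looked at after their values were known. Pccb minus Bcat2 was -0.50, -0.64 and -0.88 in NZB_W hearts, against -2.18 and -2.23 in NZW hearts. Every NZB_W array was above both NZW arrays for Pccb and below them for Pcca and Bcat2. Both separations follow from these values of the single genes, so they are not further results. Bcat2 and Pccb each have a single probe set on this platform, so neither difference could be set beside a further probe set of the same gene.

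**Figure D2:**
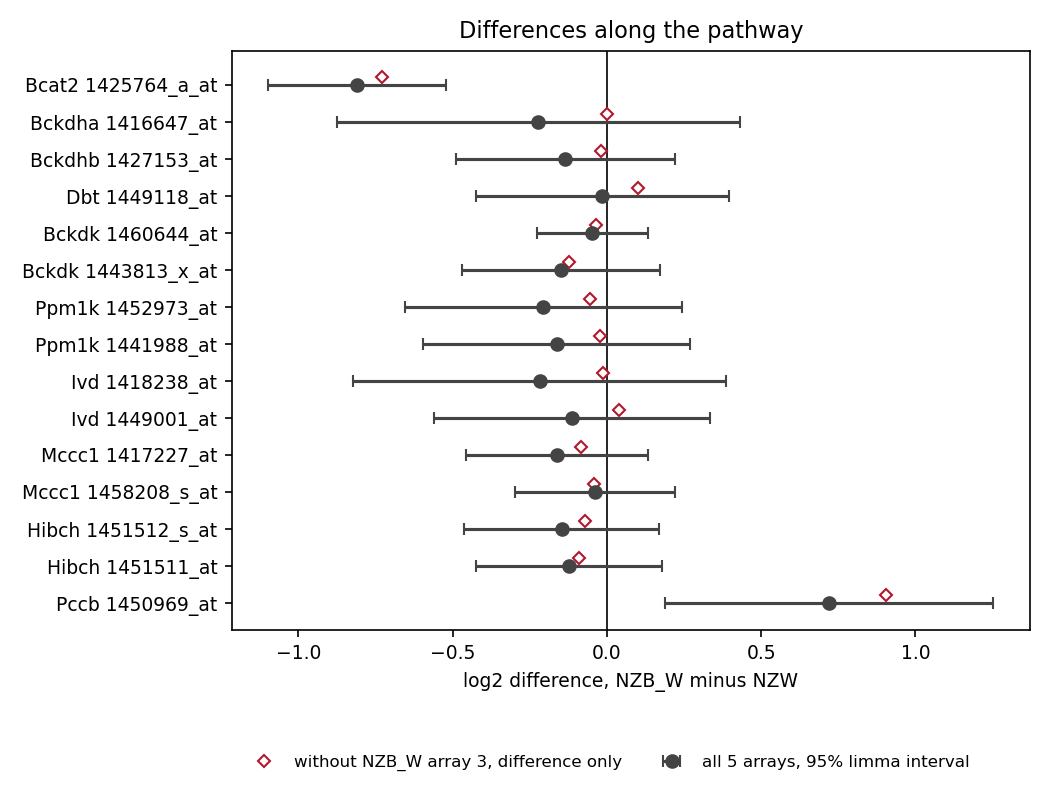
Log2 difference, NZB_W minus NZW (horizontal axis), of the 15 member probe sets in pathway order from top to bottom; filled points with bars are the fit over all 5 arrays with its 95% interval, open diamonds the difference without NZB_W array 3. The intervals of Bcat2 and Pccb exclude 0 and the other 13 include it, and without NZB_W array 3 those 13 differences lie between -0.12 and 0.10.

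Of all 15 member probe sets, 14 had a lower NZB_W mean, against 54.1% of all probe sets, and their median log2 difference was -0.15, against -0.013 over all probe sets. This lean was smaller without NZB_W array 3. That array was the lowest of the 5 in 11 of the 15 member probe sets, against 27.5% of all probe sets. The pattern was not limited to the pathway: it was also seen in 9 of 12 genes of mitochondrial content and in 6 of 10 cardiomyocyte markers. Without that array 11 of the 15 members' probe sets had a lower mean and the member median was -0.036, against -0.014 over all probe sets. NZB_W array 3 ranged from 0.67 below to 0.0041 above the mean of the other NZB_W arrays, with Bckdha at the low end (-0.67) and the dim Mccc1 probe set at the high end. The SD was larger among the NZB_W hearts than among the NZW hearts in 13 of the 15 probe sets, with SDs from 0.0602 to 0.402 in NZB_W (n = 3) and from 0 to 0.216 in NZW (n = 2). The share of all probe sets with a larger NZB_W SD was not computed, so this count is not read as a trait of the members. The SD of 0 belongs to the 2 dim probe sets of Bckdk and Mccc1, which have identical deposited values on both NZW arrays, as do 10.6% of all probe sets tested.

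The other enzymes of the pathway showed the same array pattern. Of 18 found on the arrays, 17 were bright enough to test, each by its brightest probe set. In NZB_W hearts 13 had a lower mean and 4 a higher one, with a median log2 difference of -0.11, and 0 passed the test (limma, 1 at an unadjusted p under 0.05). NZB_W array 3 was the lowest of the 5 arrays in 16 of the 17, and without it the median was -0.015 and the number with a lower mean 10. The gene with the smallest p was Hadh, a short-chain hydroxyacyl-CoA dehydrogenase of fatty acid oxidation. It read 13.15, 13.16 and 12.96 in NZB_W hearts, against 12.64 and 12.54 in NZW hearts, with no overlap. Its difference was 0.50 (SE 0.092, 95% interval 0.26 to 0.74, limma adjusted p = 0.566), and its other probe sets gave 0.55 and 0.48. Mmab, which makes the cobalamin cofactor for the final mutase step, differed by -0.45 (SE 0.21), with NZB_W array 2 inside the NZW range, and its other probe sets bright enough to test gave -0.15 and -0.26. Acad8, isobutyryl-CoA dehydrogenase of the valine branch, differed by -0.19 (95% interval -0.45 to 0.075), with NZB_W array 2 almost level with NZW array 1. Its dimmer probe set gave -0.29 (95% interval -0.52 to -0.067, limma adjusted p = 0.850), with no overlap.

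**Figure D3:**
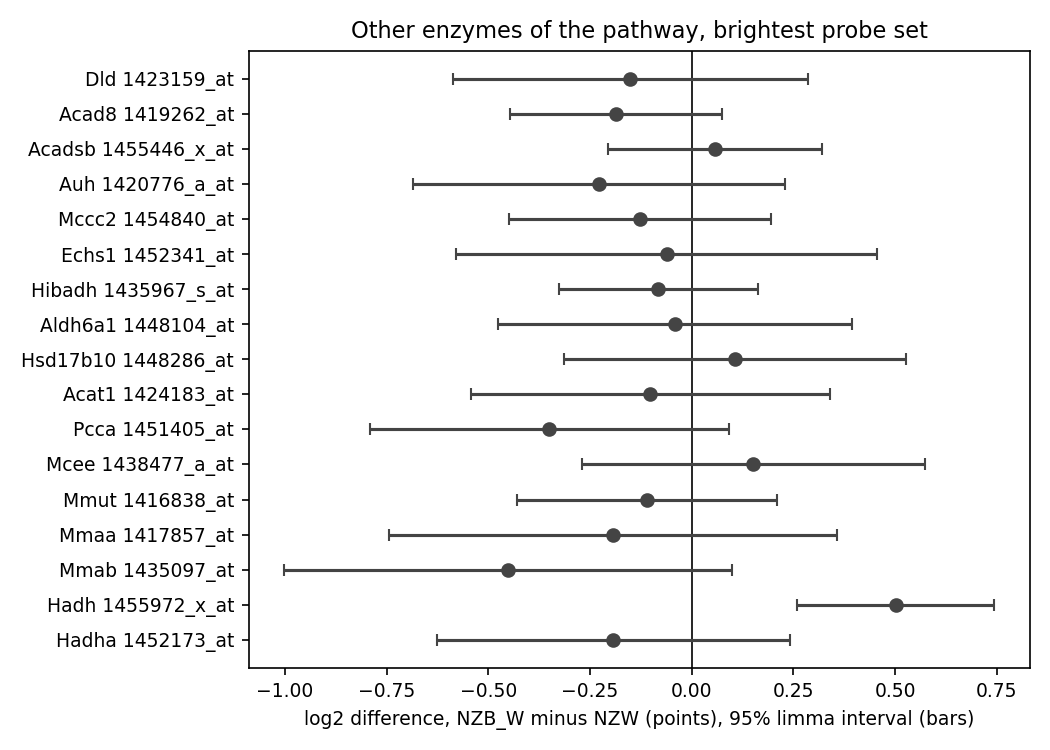
Log2 difference, NZB_W minus NZW (horizontal axis), of the 17 other pathway enzymes bright enough to test, by their brightest probe set; points are the differences over 5 arrays and bars their 95% intervals. Hadh, at 0.50, is the 1 enzyme whose interval excludes 0, and Pcca and Mmab lie furthest to the left.

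Among 6 genes for transport and control of branched-chain amino acids, 4 had a lower and 2 a higher NZB_W mean, with a median log2 difference of -0.033, and 0 passed the test or had an unadjusted p under 0.05. Slc7a5, the light chain of a plasma membrane leucine transporter, read 6.12, 5.86 and 6.18 in NZB_W hearts, against 5.78 and 5.86 in NZW hearts. The difference was 0.24 (95% interval -0.075 to 0.55), and NZB_W array 2 was almost level with NZW array 2. Slc3a2, the heavy chain of that transporter, differed by -0.058 (95% interval -0.32 to 0.21). Slc25a44, the carrier that brings branched-chain amino acids into mitochondria, differed by -0.13 (95% interval -0.69 to 0.43). Sesn2, a cytosolic leucine sensor, differed by 0.049 (95% interval -0.20 to 0.29). Klf15, a transcription factor known in mice to drive branched-chain amino acid genes of the heart, is named outside the rule for named genes. It read 9.13, 9.17 and 8.68 in NZB_W hearts, against 9.27 and 8.90 in NZW hearts, a difference of -0.085 (95% interval -0.63 to 0.45), with NZB_W array 3 again the lowest.

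Other features of the arrays moved with NZB_W array 3. Array medians of the member genes, each relative to its mean over the 5 arrays and by its brightest probe set, were 0.020, 0.090 and -0.26 in NZB_W hearts, against 0.12 and 0.069 in NZW hearts. Those of 10 macrophage markers were 0.013, 0.00031 and 0.83 in NZB_W hearts, against -0.17 and -0.59 in NZW hearts, so the array with the lowest members had the highest macrophage markers. NZB_W array 3 was also the highest array for fibroblast (0.20), endothelial (0.26) and red blood cell markers (2.17). All 10 macrophage markers had a higher NZB_W mean (median 0.71), 0 passed the test and 3 had an unadjusted p under 0.05, and their summed linear signal ran from 3574 to 6111 in NZB_W hearts and from 2327 to 3217 in NZW hearts. NZB_W array 3 was also the lowest array for 12 genes of mitochondrial content, whose array medians were 0.018, 0.025 and -0.068 in NZB_W hearts, against 0.017 and -0.0082 in NZW hearts, with a median log2 difference of -0.029. Its brightest genes, the respiratory chain subunit Cox5b and the ATP synthase subunit Atp5b, differed by -0.069 and -0.028. The 5′ minus 3′ log2 difference of the beta-actin control was -0.88, -0.89 and -1.31 in NZB_W hearts, against -0.89 and -1.19 in NZW hearts. That of the Gapdh control was 0.17, 0.11 and -0.16 in NZB_W hearts, against 0.15 and 0.048 in NZW hearts. The part of these cell types and of RNA quality in the low values of NZB_W array 3 was not tested, and in whole-heart RNA fewer cardiomyocytes and less of a transcript per cell cannot be told apart.

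**Figure D4:**
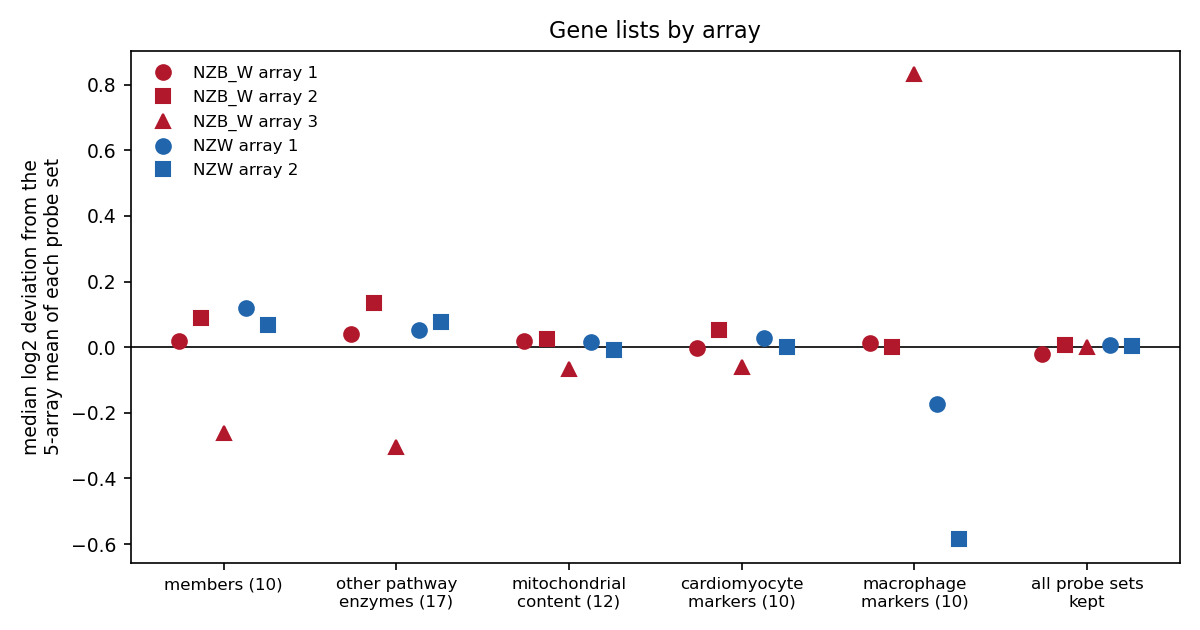
Median log2 deviation of 6 gene lists (vertical axis; each gene by its brightest probe set, relative to its mean over the 5 arrays) for the NZB_W arrays (red) and the NZW arrays (blue), with list sizes in brackets and all probe sets tested at the right. NZB_W array 3 (triangle) is the lowest array for the members (-0.26), the other pathway enzymes (-0.30), mitochondrial content (-0.068) and cardiomyocyte markers (-0.060), and the highest for macrophage markers (0.83).

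The tissue label was met by its markers: on each of the 5 arrays the myoglobin gene Mb read at least 14.14 and the ventricular myosin light chain Myl2 at least 14.11, near the highest values of the arrays. The 10 cardiomyocyte markers had a median log2 difference of -0.029, and a summed linear signal from 130095 to 134584 in NZB_W hearts and from 131517 to 141380 in NZW hearts. Myl7, the atrial myosin light chain, is named outside the rule because of its spread: it read 3.87, 10.24 and 13.01 in NZB_W hearts, against 13.14 and 4.76 in NZW hearts. Its values overlapped between the groups, and its part in the member values was not tested. Of 7 adipocyte markers on the arrays 4 were bright enough to test, with Cidec, Lep and Ucp1 too dim. The 4 summed to 7245 to 8897 in NZB_W hearts and 7108 to 7572 in NZW hearts. That sum is mostly Fabp4, which had a higher NZB_W mean (log2 difference 0.16). The other 3, Adipoq, Retn and Cidea, had a lower one, and the median log2 difference of the 4 was -0.28. Endothelial markers (6) summed to 2302 to 2850 in NZB_W hearts and 2272 to 2401 in NZW hearts, and fibroblast markers (7) to 10708 to 19951 in NZB_W hearts and 12789 to 13920 in NZW hearts. Of 3 red blood cell markers on the arrays, 2 were bright enough, and they summed to 268 to 1429 in NZB_W hearts and 139 to 161 in NZW hearts. The part of these cell types in the member values was not tested.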

How the data were processed

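Hearts were taken after bleeding and saline perfusion, and labelled cRNA was made from 6 µg of total RNA extracted with Trizol, per the labels' protocols. The deposited values are log2 expression levels, 1 for each of 45101 probe sets and 5 arrays. RMA, GCRMA and Partek are listed by the submitters' processing notes with no roles, so whether RMA or GCRMA made the values is unknown, and these treat dim signal differently. No scanner files were used, so there are no detection calls. Array medians were 4.62 to 4.68, and all 5 columns matched a sample.

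Groups come from the sample titles, which call the arrays biological replicates. Probe sets carry the symbols of GEO's platform annotation (34958 with 1 symbol, 932 with several, 9211 with none); all 15 member probe sets matched RefSeq gene names through Entrez identifiers. Probe sets were kept if above the median of their array on at least 2 arrays and not 1 of 64 controls, which left 22804, all 15 of the members among them. The fit used lmFit and eBayes of limma 3.58.1 under R 4.3.3 (no covariates, two-sided; prior 1.61 and residual 3 degrees of freedom), with Benjamini-Hochberg adjustment over all of them. SE and 95% intervals are limma's. The script was tested on simulated data. The number of arrays limits the precision.

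Members and lists were chosen with earlier results of these data known. The rule for named genes takes all members, up to 4 genes with the smallest p of each other pathway list, and the 2 brightest of the mitochondrial list; other genes are marked. Alternatives covered normalization, the filter, probe set choice, the variance model, array weights, a replicate block and leaving out arrays.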

Additional observations from a re-analysis of the deposited data

How the results depend on the processing

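Over 15 alternative settings, Bcat2 stayed lower in NZB_W (-0.88 to -0.71) and Pccb higher (0.62 to 0.90), and no member probe set passed the threshold in any of them. The 5 probe sets called over the whole table became 2 with no filter, 2 with a filter on all arrays, 1 with the brightest probe set per gene, 16 with array weights, and 0 to 2 with 1 array left out (a lone NZW array is then assumed to vary like the NZB_W arrays). With NZB_W replicate 3 and NZW replicate 2 both left out, 0 probe sets were called, 7 of 17 other pathway enzymes were lower and the member median was -0.028; it was -0.030 with array weights and -0.21 to -0.036 with 1 array left out, where 10 to 14 of those enzymes were lower. Among the 13 probe sets outside Bcat2 and Pccb 7 changed sign in at least 1 setting. With array weights the differences were 0.012 for Bckdha, 0.029 for Ivd (1449001_at), 0.099 for Dbt and 0.037 for Mccc1 (1458208_s_at). With both arrays left out they were 0.0014 for Mccc1 (1417227_at), 0.047 for Ivd (1449001_at), and 0.062 and 0.032 for the Hibch probe sets. With 1 array left out they ran from -0.39 to 0.00090 for Bckdha, -0.21 to 0.038 for Ivd (1449001_at), -0.14 to 0.11 for Dbt, -0.11 to 0.030 for Mccc1 (1458208_s_at) and -0.27 to 0.031 for Hibch (1451511_at). The settings with a change of sign use fewer arrays or weight the arrays unequally. The weights were 0.76, 3.19 and 0.34 for NZB_W arrays 1, 2 and 3, and 1.10 for each NZW array. Thus NZB_W array 2 was weighted up as well as NZB_W array 3 down. Other causes were not tested.

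Replicate numbers 1 and 2 occur in both groups. Deviations from the group means correlated at -0.031 and 0.035 between arrays of the same number. The deviations of 2 NZW arrays mirror each other, so this check cannot tell whether the numbers pair the hearts. A fit with the replicate block, without NZB_W replicate 3, called 0 probe sets, with a member median of -0.036 and differences of 0.00090 for Bckdha, 0.038 for Ivd (1449001_at) and 0.10 for Dbt. No dim probe set has a background measure here, so the depth limit of the dim Bckdk and Mccc1 probe sets is unknown.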

Other observations

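Genes next to Bcat2 and Pccb on their chromosomes were looked at after the member values were known, taking the 5 nearest protein-coding genes on each side that the arrays measure, by RefSeq gene order. Around Bcat2, 6 of 10 were bright enough to test, and all 6 overlapped between the groups. Around Pccb, 8 of 10 were bright enough, and 4 of them had every NZB_W array below both NZW arrays, against 9.66% of all probe sets. These were Ephb1, an ephrin receptor (log2 difference -0.94, SE 0.24), Ppp2r3a, a regulatory subunit of protein phosphatase 2A (-0.29, SE 0.093), Nck1, an adaptor of receptor tyrosine kinases (-0.27, SE 0.10), and Msl2 (-0.10, SE 0.088). None passed the test over all probe sets (limma), and 3 had an unadjusted p under 0.05. The other 4 overlapped. Of the 2 too dim to test, Il20rb had every NZB_W array above both NZW arrays.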
